A study of Mus musculus with 8 samples.

Results

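The genes described here are the 10 mouse Sox factors Sox4, Sox5, Sox6, Sox7, Sox9, Sox11, Sox13, Sox15, Sox18 and Sox21, that is, Sox family genes other than Sox2 and Sox10 that are active in skin, hair follicles, vessels or cartilage. They were found on the array by the RefSeq accession of each probe, and 14 probes belong to them, 1 probe for 6 of the genes and 2 probes for Sox4, Sox5, Sox11 and Sox21. The array carried 36799 genes and other targets, of which 23139 passed a filter on dim signal and were tested. Of the 10 Sox genes 9 were tested, and Sox18 was not, because its probe was well above background on only 2 of 4 arrays of each genotype.

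To ask what the loss of the Polycomb subunit EED does to gene expression in skin, RNA was profiled from the back skin epidermis of newborn (P0) C57BL/6 mice, 4 EED cKO and 4 control, labeled as biological replicates. EED cKO mice are K14-Cre; EED flox/flox, so that Eed is removed in keratin 14-expressing cells of the epidermis and its appendages and not in cells of other origin that remain in the sample. The alleles of the controls are given only as control. Each array compared 1 sample with a commercial RNA pool common to all arrays, the Universal Mouse Reference RNA, with the sample in Cy3 on replicates 1 and 3 and in Cy5 on replicates 2 and 4 of both genotypes. All values are log2 ratios of sample over this reference, and a difference is EED cKO minus control unless stated otherwise.

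Sox proteins bind the minor groove of DNA through a shared high mobility group box and are grouped by the similarity of that box. SoxB2 members such as Sox21 mostly act as repressors. SoxC members (Sox4 and Sox11) are activators found in progenitors, and SoxD members (Sox5, Sox6 and Sox13) lack a transactivation domain and work as partners of other Sox proteins. SoxE members (Sox9) specify and maintain stem and progenitor cells, SoxF members (Sox7 and Sox18) act in vessels, and Sox15 is the lone SoxG member. In skin, Sox9 marks and maintains the progenitors of the hair follicle, Sox21 acts in the hair cuticle, and Sox18 acts in the endothelium and the dermal papilla. PRC2, the complex to which EED belongs, places the repressive mark H3K27me3, and many developmental transcription factor genes with CpG-rich promoters are among its targets in embryonic cells.

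Eed itself checked the labels. Its log2 ratio was -1.74, -2.04, -1.78 and -1.66 in the EED cKO and -0.18, -0.46, -0.31 and -0.43 in the control, a difference of -1.46 (SE 0.09, adjusted p = 2.13e-05 by limma). The sample channel exceeded background clearly on 51.5% to 65.5% of spots, in similar spans for both genotypes, with 0 saturated spots. Keratin genes of the epidermis (Krt5, Krt14 and Krt10) were above background on all 8 arrays and did not pass the test between genotypes. Control replicates 2 and 3 stood apart from the other 6 arrays, because RNA of Y-linked genes was high in these alone (mean log2 ratio of 4 genes 1.19 and 1.02, against -1.51 to -1.31 elsewhere), and this RNA was used as a covariate in an alternative chosen after seeing the data. All arrays were on 1 slide, with the EED cKO in 1 row and the control in the other, so the slide row and the genotype cannot be told apart.

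Among the 9 tested Sox genes, Sox9 and Sox11 rose in the EED cKO and Sox15 fell at an adjusted p below 0.05. That is 33.3% of the tested Sox genes, beside 21.7% of all genes and targets tested. By direction, 2 of 9 were higher beside 11.8% of all, and 1 of 9 was lower beside 9.93% of all. None of the 9 reached a 2-fold difference by limma with an adjusted p below 0.05, a call made for 1.2% of all features. At an unadjusted p below 0.05 by limma there were 6 of 9, but the share over all features was not counted there, so nothing is read from it. By the methods' t-test without adjustment 2 were higher and 1 was lower, beside 24.2% of all features called in either direction. The median difference of the 9 was 0.04 beside 0.02 over all features. The values of EED cKO and control arrays did not overlap for 2 of the 9 (Sox9 and Sox13), which is 22.2% beside 17.2% of all features. Under median centring of the arrays, and by the methods' t-test after Benjamini-Hochberg adjustment, 0 of 9 passed. Calls over all features fell to 2554 and 913 in number (11% and 3.95%). Because whole epidermis was measured, fewer cells that express a gene and less RNA per cell cannot be told apart.

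**Figure D1:**
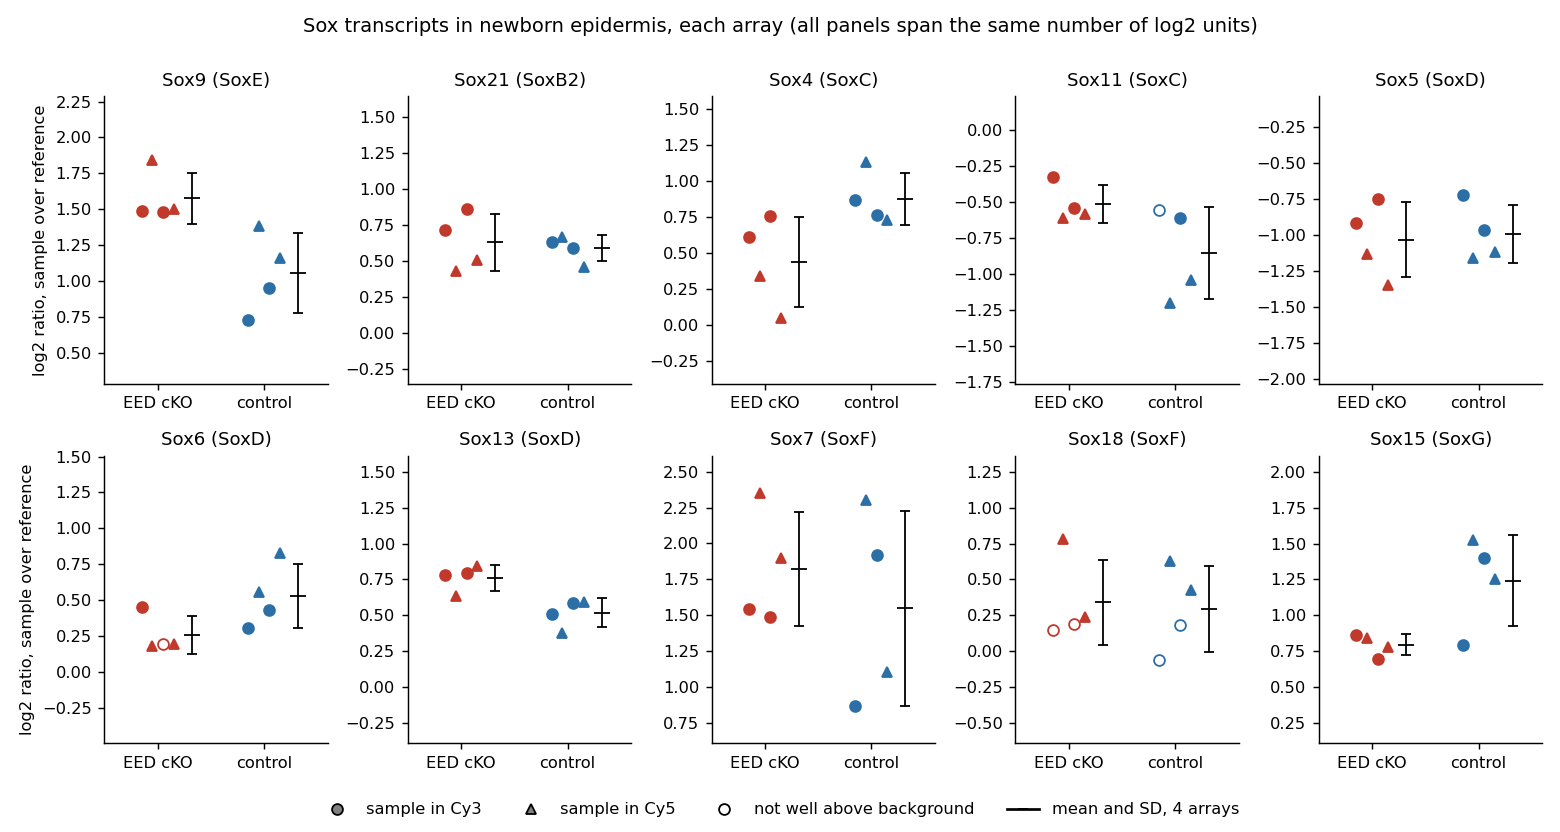
Log2 ratio of sample over reference for each of the 10 Sox genes on each array, EED cKO in red and control in blue, with the sample in Cy3 as circles and in Cy5 as triangles. Open symbols were not well above background and the bars are mean and SD of 4 arrays. Sox9 and Sox13 are the genes whose groups do not overlap, and Sox15, Sox11 and Sox7 spread more widely in the control than in the EED cKO.

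Sox9, the SoxE factor of hair follicle progenitors, had the smallest adjusted p of the Sox genes. Its log2 ratio was 1.49, 1.84, 1.48 and 1.50 in EED cKO replicates 1 to 4, and 0.73, 1.38, 0.95 and 1.16 in control replicates 1 to 4. Every EED cKO array lay above every control array, although control replicate 2 came within reach of the lowest EED cKO values. The means were 1.58 ± 0.18 (SD, n = 4) and 1.06 ± 0.28 (SD, n = 4). The difference was 0.52 (SE 0.10, 95% interval 0.29 to 0.75, adjusted p = 0.00827 by limma), which is 1.44-fold higher in the EED cKO. The exact two-sided permutation test over the 8 arrays gave p = 0.0286, the smallest p that 4 arrays against 4 allow.

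The Sox9 probe is printed 10 times on each array, more than any other Sox probe, and the SD over these spots was 0.05 to 0.08 log2 units. Spot noise was therefore smaller than the spread between arrays, an SD of 0.18 in the EED cKO and 0.28 in the control. This spread covers arrays of both dye orientations, so it is not the spread between animals alone. The median intensity of the sample was 424 to 793 in the EED cKO and 231 to 741 in the control, against a local background of 21 to 26. Between arrays with the sample in Cy3 the difference was 0.64 and between those in Cy5 0.40, so both dye orientations had the same sign. The difference was smaller and did not pass when each array was centred on its median in place of loess (0.34, adjusted p = 0.205), nor did it pass by the methods' t-test after Benjamini-Hochberg adjustment (adjusted p = 0.131). It passed under the other 24 of 26 alternatives, with Y-linked RNA as a covariate among them (0.62, adjusted p = 0.0104).

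The genes whose dye-adjusted log2 ratio followed that of Sox9 most closely over the 8 arrays were Lpar3, a lysophosphatidic acid receptor (Pearson r = 0.986), Spink4, a Kazal-type serine protease inhibitor (r = 0.986) and Artn, a ligand of the GDNF family (r = 0.986). These coefficients include the difference between genotypes, since all 3 genes were higher in the EED cKO, by 0.79, 0.43 and 0.57. They describe 8 arrays that share 1 reference and 1 slide.

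Genes of hair follicle progenitors, the setting in which Sox9 acts, moved in both directions. Of 17 listed and tested, 3 were higher, 5 were lower and 9 did not pass, with a median difference of 0.00. Over all features 11.8% were higher and 9.93% lower. By the methods' t-test after adjustment 1 of the 17 passed, beside 3.95% of all features. Krt15 and Krt17, keratins of the bulge and the outer root sheath, differed by 0.17 and 0.08 and did not pass (adjusted p = 0.211 and 0.559). Nfib, a transcription factor of follicle stem cells, fell by 0.75 (adjusted p = 0.00424), with overlapping groups. The other lower genes were Shh (-0.79), Gli2 (-0.70), Edar (-0.50) and Lrig1 (-0.47). The 3 higher genes were Tbx1 (0.97), Runx1 (0.74) and Nfatc1 (0.70), of which Tbx1 had overlapping groups. Among the cartilage genes that Sox9 activates together with Sox5 and Sox6, 6 of 12 were tested and 0 passed by limma, with 1 of 6 at an unadjusted p below 0.05 both by limma and by the methods' t-test. The tested cartilage genes with the brightest probes were Col9a2 (0.12), Chad (-0.05) and Col11a2 (-0.01), all with an adjusted p above 0.2 (0.225, 0.751 and 0.971). Probes of 4 of the 12 cartilage genes were above background on no array.

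Sox21, the SoxB2 factor of the hair cuticle, gave different answers with its 2 probes. The probe that represents the gene read 0.72, 0.43, 0.86 and 0.51 in the EED cKO and 0.63, 0.67, 0.59 and 0.46 in the control. These ranges overlapped throughout, and the difference was 0.04 (SE 0.09, 95% interval -0.15 to 0.24, adjusted p = 0.771 by limma). The other probe was almost as bright (mean log2 signal 6.94 against 6.95) and read 1.56, 1.79, 1.92 and 1.51 in the EED cKO and 1.90, 2.31, 1.87 and 1.95 in the control. On that probe 3 of the 4 EED cKO arrays were below every control array, and the difference was -0.31 (95% interval -0.59 to -0.04, exact permutation p = 0.0857). The sign of the Sox21 difference therefore depended on the probe, and it was also negative for the median of both probes (-0.14), for the sample channel alone (-0.06) and without EED cKO replicate 3 (-0.01).

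Genes of the hair matrix, cuticle and shaft are the setting of Sox21 and Sox4. Of 16 tested, 4 were higher, 1 was lower and 11 did not pass, beside 11.8% higher and 9.93% lower over all features. The median difference of the list was 0.18, and 0 of the 16 passed by the methods' t-test after adjustment, beside 3.95% of all features. Krt27, a keratin of the inner root sheath, rose by 1.33 (SE 0.41, adjusted p = 0.0439), the one gene of the list past 2-fold. Its groups of arrays overlapped. Lef1, the Wnt effector of the matrix, fell by 0.76 (adjusted p = 0.00439). Dlx3 and Krt73 differed by -0.04 and 0.21 and did not pass (adjusted p = 0.802 and 0.0588).

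The SoxC pair lay on opposite sides of 0. Sox4, which acts in progenitors and in the growing follicle, had log2 ratios of 0.61, 0.34, 0.76 and 0.05 in the EED cKO and 0.87, 1.13, 0.77 and 0.73 in the control. Of the EED cKO arrays only replicate 3 reached the control range, and the EED cKO arrays spread more widely. Means were 0.44 ± 0.31 and 0.88 ± 0.18 (SD, n = 4), and the difference of -0.44 (SE 0.14, 95% interval -0.76 to -0.11) missed the threshold (adjusted p = 0.0567 by limma, exact permutation p = 0.0571). The second, dimmer Sox4 probe gave -0.31 (95% interval -0.56 to -0.05). With the replicate number as a block the Sox4 difference passed (adjusted p = 0.0435). The difference was -0.13 between arrays with the sample in Cy3 and -0.74 between those in Cy5.

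Sox11, the other SoxC member, was measured close to background. Its log2 ratio was -0.32, -0.61, -0.54 and -0.58 in the EED cKO and -0.55, -1.20, -0.61 and -1.04 in the control. The groups overlapped, and the lowest values were those of control replicates 2 and 4, both with the sample in Cy5. The means were -0.52 ± 0.13 and -0.85 ± 0.32 (SD, n = 4), and the difference was 0.34 (SE 0.10, 95% interval 0.12 to 0.55, adjusted p = 0.0351 by limma), 1.26-fold higher in the EED cKO. The exact permutation test gave p = 0.143. The sample signal was 40.0 to 61.0 in the EED cKO and 32.0 to 59.0 in the control, and 3 of 4 control arrays were well above background.

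The Sox11 call held in 14 of 26 alternatives. The second probe, above background on 1 array in all, differed by 0.01 (95% interval -0.16 to 0.18), and the median of both probes by 0.17 (adjusted p = 0.186). The call was also lost under median centring (0.25, adjusted p = 0.155), when the dye was left out of the model (adjusted p = 0.184), with Y-linked RNA as a covariate (0.28, adjusted p = 0.149), by the methods' t-test and when any of EED cKO replicates 1, 2 or 4 or control replicates 2 or 4 was left out. By the Feature Extraction log ratio, which has no offset that draws dim ratios toward 0, the difference was 1.21 (adjusted p = 0.0170) and passed the 2-fold limit. Without background correction it was 0.48 (adjusted p = 0.0185).

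The 250 bases before the start of Sox11 (RefSeq, GRCm38.p6, chr12:27342719-27342968, minus strand) are shown because Sox11 and Sox15 were the called Sox genes with a promoter in the sequence table used here and differ in CpG content. Capitals mark the CpG pairs, and the sequence reads 5′ to 3′ toward the start.
Sox11: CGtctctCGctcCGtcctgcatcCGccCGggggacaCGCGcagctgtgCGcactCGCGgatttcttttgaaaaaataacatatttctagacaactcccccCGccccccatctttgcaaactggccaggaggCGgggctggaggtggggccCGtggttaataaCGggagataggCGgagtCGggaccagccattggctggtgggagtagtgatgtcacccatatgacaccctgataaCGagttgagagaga
In the window of 300 bases that takes in 50 bases after the start, Sox11 had 21 CpG pairs, more than 75.2% of the 32851 promoters in that table, whose median is 7. The SoxC list of genes known to be activated by Sox4 and Sox11 had 3 tested of 5. Of these, 1 rose, beside 11.8% of all features. By the methods' t-test after adjustment 0 of the 3 passed, beside 3.95% of all features. Tubb3, a neuronal tubulin, rose by 1.15 (SE 0.23, adjusted p = 0.00862). Tead2 and Stmn2 differed by 0.17 and 0.27 and did not pass (adjusted p = 0.189 and 0.0602).

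Of the SoxD members, Sox13 was slightly higher in every EED cKO array than in any control array. Its log2 ratios were 0.78, 0.63, 0.79 and 0.84 in the EED cKO and 0.51, 0.38, 0.59 and 0.59 in the control. Both groups were tight, with means of 0.76 ± 0.09 and 0.52 ± 0.10 (SD, n = 4). The difference of 0.24 (SE 0.08, 95% interval 0.07 to 0.42) missed the threshold (adjusted p = 0.0513 by limma), with an exact permutation p of 0.0286. It was 0.24 between arrays in Cy3 and 0.25 between arrays in Cy5. With the replicate block it passed (adjusted p = 0.0256), and under median centring it shrank to 0.07.

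Sox6, which pairs with Sox5 in cartilage and also acts in muscle and red cells, read 0.45, 0.18, 0.20 and 0.20 in the EED cKO and 0.31, 0.56, 0.43 and 0.83 in the control. EED cKO replicate 1 stood above the other EED cKO arrays and inside the control range. The difference was -0.27 (SE 0.11, 95% interval -0.53 to -0.02, adjusted p = 0.116, exact permutation p = 0.0857), and without EED cKO replicate 1 it was -0.37 and passed (adjusted p = 0.0451), whereas without control replicate 4 it was -0.18 (adjusted p = 0.274). Sample signals were 31.0 to 64.0, against a background of 20.5 to 26.0, so the probe was dim. Nearly all of the difference came from arrays in Cy5 (-0.50, against -0.05 in Cy3).

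Sox5, the partner of Sox6 in cartilage, was measured well above background, at 870 to 2558 intensity units in the sample channel. Its log2 ratios were -0.91, -1.13, -0.75 and -1.35 in the EED cKO and -0.72, -1.16, -0.96 and -1.12 in the control. The groups overlapped fully, and the difference was -0.04 (SE 0.09, 95% interval -0.23 to 0.15, adjusted p = 0.771 by limma). The reference channel of Sox5, which holds the same RNA on every array, differed by -0.24 between the genotypes (unadjusted p = 0.0273, adjusted p = 0.514), the one Sox gene of the 9 with an unadjusted p below 0.05 there. In the reference channel 0 Sox genes passed by limma with adjustment, beside 117 genes and targets in all.

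**Figure D2:**
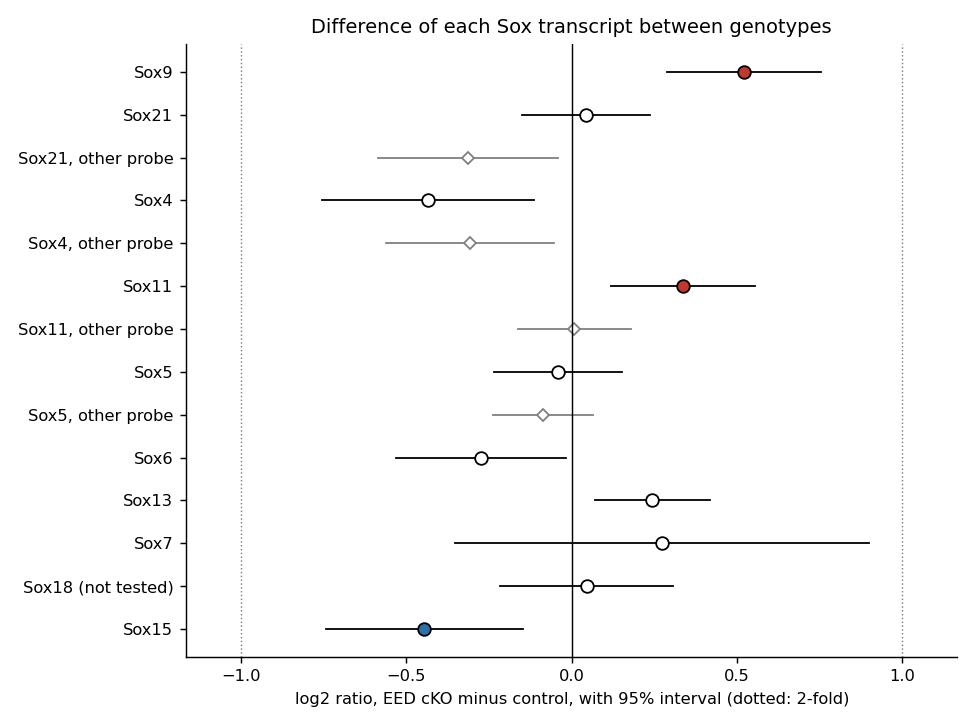
Difference of the log2 ratio between EED cKO and control for each Sox gene (circles) and for the other probe of the 4 genes with 2 probes (grey diamonds), with 95% intervals. Filled circles passed an adjusted p below 0.05, higher in red and lower in blue, and the dotted lines mark 2-fold. All intervals end inside 2-fold, and the probes of Sox21 lie on opposite sides of 0 (0.04 and -0.31).

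The SoxF members showed no difference beyond their spread. Sox7, a factor of vessel and blood precursors, had log2 ratios of 1.55, 2.35, 1.49 and 1.90 in the EED cKO and 0.87, 2.30, 1.92 and 1.1 in the control. The highest control values were those of replicates 2 and 3, the arrays with Y-linked RNA. The difference was 0.27 (SE 0.28, 95% interval -0.35 to 0.90, adjusted p = 0.527 by limma, exact permutation p = 0.486), the widest interval among the 10 genes. With Y-linked RNA as a covariate it was 0.80 and passed (adjusted p = 0.00871), whereas it was 0.00 without control replicate 4 and 0.51 without control replicate 3.

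Sox18 read 0.15, 0.78, 0.19 and 0.24 in the EED cKO and -0.06, 0.63, 0.19 and 0.43 in the control. In both genotypes only the arrays in Cy5 were well above background, and the highest value was replicate 2. The means were 0.34 ± 0.30 and 0.29 ± 0.30 (SD, n = 4) and differed by 0.05 (95% interval -0.22 to 0.31), with no adjusted p because the gene was not tested. Its sample signal was 31.0 to 55.0 in intensity units.

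Both SoxF genes are known to act in endothelial cells. Of 16 markers of these cells 6 were tested and 2 of them rose, beside 11.8% of all features. By the methods' t-test after adjustment 0 of the 6 passed, beside 3.95% of all features. Kdr, the main VEGF receptor, was 1 of the 2 and rose by 0.62 (SE 0.09, adjusted p = 0.00215). Egfl7 and Flt1 differed by 0.39 and 0.25 and did not pass (adjusted p = 0.0696 and 0.154). Flt1 and Cldn5 passed the filter on dim signal only through the EED cKO arrays. The summed signal of the list was 6771 to 8197 in the EED cKO and 4551 to 6183 in the control, without overlap. This sum adds unlogged signals, so bright probes weigh most in it. Kdr and Egfl7 had the brightest probes (mean log2 signal 11.4 and 10.1). Pecam1, the other endothelial gene that rose, did so by 0.89 (SE 0.15, adjusted p = 0.00385 by limma) without overlap between the groups. Vwf was above background on all 8 arrays and did not pass (0.09, adjusted p = 0.407 by limma). Other markers such as Cdh5, Tek, Tie1 and Erg were above background on no array, as were 8 of the 16 in all. The part of endothelial RNA in the SoxF values was not tested.

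Sox15, the SoxG member, an HMG-box factor of muscle precursors and placenta, was the Sox gene that fell. Its log2 ratio was 0.87, 0.84, 0.70 and 0.78 in the EED cKO and 0.79, 1.52, 1.40 and 1.25 in the control. The EED cKO arrays were tightly grouped and 3 control arrays were far above them, while control replicate 1 lay among the EED cKO arrays. The means were 0.80 ± 0.08 and 1.24 ± 0.32 (SD, n = 4). The difference was -0.45 (SE 0.13, 95% interval -0.74 to -0.15, adjusted p = 0.0406 by limma), 1.36-fold lower in the EED cKO, and the exact permutation test gave p = 0.0857. It was -0.32 between arrays in Cy3 and -0.57 between arrays in Cy5.

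The Sox15 call held in 12 of 26 alternatives, with differences from -0.59 without control replicate 1 to -0.25 with Y-linked RNA as a covariate (adjusted p = 0.193). It was lost when control replicates 2, 3 or 4 or EED cKO replicates 2, 3 or 4 were left out, with adjusted p from 0.0607 to 0.126. It also did not pass by the Feature Extraction log ratio (-0.55, adjusted p = 0.281), under median centring (-0.35, adjusted p = 0.146) or without the filter on dim probes (adjusted p = 0.0601). Its direction was the same in all 26. The sample signal was 61.5 to 77.0 in the EED cKO and 71.0 to 131 in the control.

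The 250 bases before the start of Sox15 (RefSeq, GRCm38.p6, chr11:69654787-69655036, plus strand) hold few CpG pairs, again in capitals.
Sox15: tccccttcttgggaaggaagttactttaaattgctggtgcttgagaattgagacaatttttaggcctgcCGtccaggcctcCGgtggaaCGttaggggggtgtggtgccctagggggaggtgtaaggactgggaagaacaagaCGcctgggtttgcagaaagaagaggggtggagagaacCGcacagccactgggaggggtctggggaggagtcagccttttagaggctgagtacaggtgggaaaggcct
Sox15 had 5 CpG pairs in its window of 300 bases, more than 38.0% of all promoters, against the 21 of Sox11. The table held promoters of 7 of the 10 Sox genes, and not of Sox7, Sox9 or Sox18. CpG pairs numbered 40 for Sox13, 22 for Sox21, 12 for Sox4, 3 for Sox5 and 2 to 13 over the 6 starts of Sox6, beside quartiles of 3 and 20 over all promoters. The Sox core motif, ACAAT or its reverse complement ATTGT, was searched on both strands in the 300 bases. It was found in 5 of the 12 promoter windows of these genes (Sox15, Sox5 and 3 starts of Sox6) beside 31.0% of all promoters.

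The genes that followed Sox15 most closely over the 8 arrays were Tm9sf2, a transmembrane protein of endosomes (Pearson r = 0.992), C87436 (r = 0.983) and Ric1, part of a Golgi exchange factor (r = 0.981). Their differences between genotypes were -0.24, -0.24 and -0.32.

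**Figure D3:**
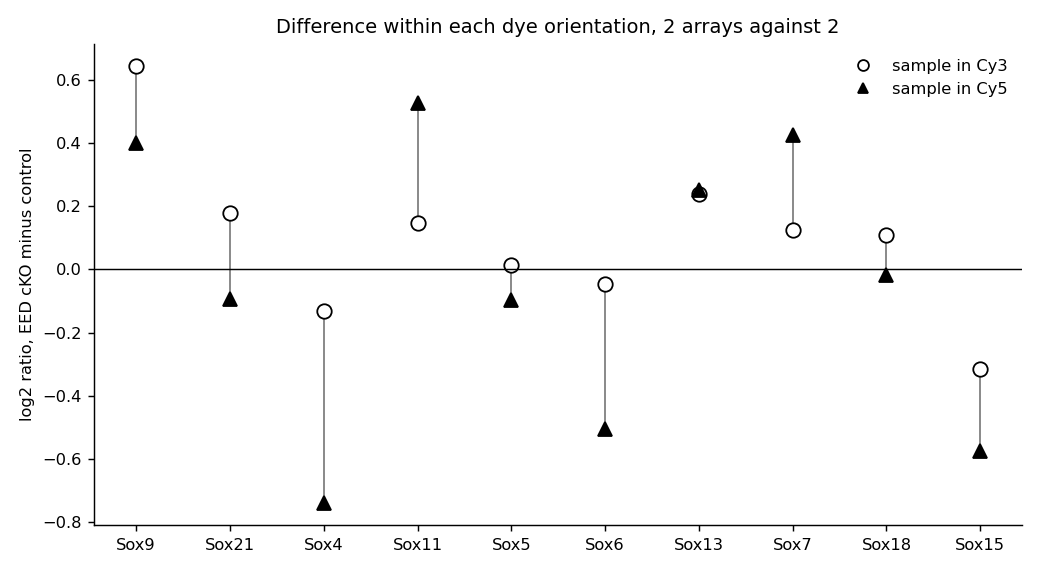
Difference of the mean log2 ratio between EED cKO and control within each dye orientation (2 arrays against 2), with the sample in Cy3 as open circles and in Cy5 as filled triangles. Sox9, Sox11, Sox13, Sox7, Sox4, Sox6 and Sox15 have the same sign in both, and Sox13 lies almost on itself. Sox4, Sox6, Sox7, Sox11 and Sox15 are farther from 0 on the Cy5 arrays, and Sox9 on the Cy3 arrays.

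Across the 10 genes, 7 had the same sign within both dye orientations and Sox21, Sox5 and Sox18 did not. The distance between the orientations was largest for Sox4 (-0.13 and -0.74) and smallest for Sox13. With 2 arrays a side no test was made within an orientation.

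Among the 9 other Sox family genes on the array 5 were tested, of which 2 were higher, 1 was lower and 2 did not pass. Over all features 11.8% were higher and 9.93% lower. By the methods' t-test after adjustment 0 of the 5 passed, beside 3.95% of all features. Sox2, a SoxB1 factor of Merkel cells, was well above background on the 4 EED cKO arrays and on 0 control arrays, through which it passed the filter on dim signal. Its level in the control is thus only a bound. The normalized sample signal of Sox2 was at least 1.24-fold higher in the EED cKO, against the lowest signal well above background on each control array. This bound was not tested, and the call of Sox2 rests on control values that were not well above background. Sox10, the SoxE factor of melanocytes and Schwann cells, fell by 0.50 (SE 0.16, adjusted p = 0.0489 by limma). Its groups overlapped, with an exact permutation p of 0.171, and in the sample channel alone it did not pass (adjusted p = 0.0719 by limma). Sox14, the SoxB2 paralog of Sox21, rose by 0.25 (SE 0.07, adjusted p = 0.0329 by limma) without overlap between the groups. In the sample channel alone Sox14 did not pass (adjusted p = 0.0933 by limma). Sox1 and Sox17 differed by 0.15 and 0.07 and did not pass (adjusted p = 0.208 and 0.561). Sox17, like Sox2, passed the filter only through the EED cKO arrays (3, against 0 in the control). Sox3, Sox8, Sox12 and Sox30 were too dim to be tested.

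Of the Merkel cell list 9 of 10 genes were tested and 8 rose, beside 11.8% of all features. By the methods' t-test after adjustment 7 of the 9 passed, beside 3.95% of all features. Among the 8 were Cck (1.64), Krt20 (1.12), Krt8 (0.65), Gfi1 (0.64) and Krt18 (0.47). Atoh1, Isl1 and Pou4f3 passed the filter on dim signal only through the EED cKO arrays (4, 4 and 3, against 2, 2 and 0 in the control). Atoh1 and Isl1 are among the 8 that rose, and Pou4f3 did not pass the test. The summed signal of the list was 2726 to 3358 in the EED cKO against 1694 to 2109 in the control. Of the immune cell list 2 of 7 rose, of the dermal fibroblast list 2 of 12 rose and 1 fell, and of the epidermal keratinocyte list 2 of 10 fell. Over all features 11.8% were higher and 9.93% lower. Fbn1, 1 of the 2 fibroblast genes that rose, passed the filter only through the EED cKO arrays (3, against 2 in the control). By the methods' t-test after adjustment 0 passed in each of these 3 lists. Of 9 melanocyte, 5 Schwann cell, 2 skeletal muscle and 5 erythroid genes tested, 0 passed by limma, with 4, 0, 1 and 1 at an unadjusted p below 0.05 and 0 in each list by the methods' t-test after adjustment. The part of these cell types in the Sox values was not tested.

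**Figure D4:**
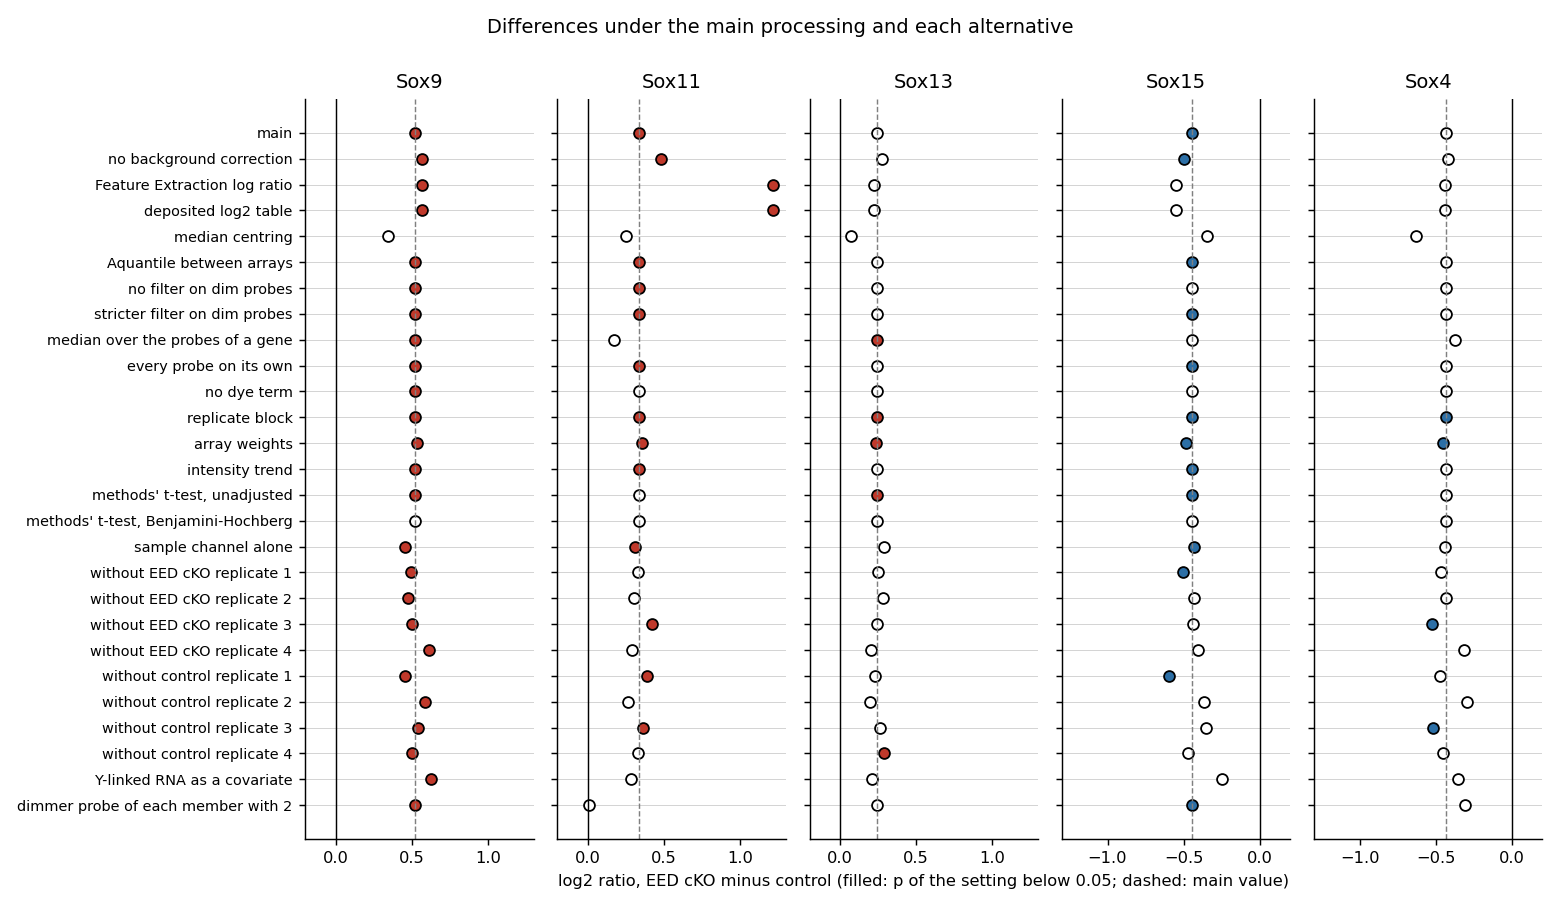
Difference of the log2 ratio between EED cKO and control for Sox9, Sox11, Sox13, Sox15 and Sox4 under the main processing and 26 alternatives, filled where the p of that setting was below 0.05 (the methods' t-test is shown with and without adjustment, and all others adjusted). Sox9 is filled in 24 alternatives, Sox11 in 14, Sox15 in 12, Sox13 in 5 and Sox4 in 4, and no gene of the 5 crosses 0.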

How the data were processed

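RNA of 4 EED cKO and 4 control epidermis samples was measured on 8 two-color Agilent arrays. The authors scanned the arrays and extracted them with Agilent Feature Extraction 12.0.1.1. They deposited for each array the median spot and background intensity of both channels, not normalized, a flag for each spot that exceeds background, and the software's log10 ratio (Cy5 over Cy3). A second deposited table gives log2 ratios, whose values for 55249 single-spot probes were within 1e-04 of the log2 ratio of the processed signals of the same array, uncentred. The trypsin and dispase times differ between the labels and the methods.

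The median intensity was corrected by normexp (offset 50), which draws ratios of dim spots toward 0, and normalized by loess within each array. Swapped arrays were turned, spots of a probe averaged and the probe with the highest mean signal taken for each gene. Probes were named through RefSeq accessions of GRCm38.p6 (28026 of 29796 matched). The design file of the array uses an earlier build, and no probe coordinates are given. Features were tested if the sample signal was well above background on 3 or more arrays of a genotype (23139 of 36799, with 19 missing values filled with the group mean, none in a Sox gene named here). Genotypes were compared with limma 3.58.1 in R 4.3.3 (genotype and dye, Benjamini-Hochberg over all tested features). For single genes the genotypes were also permuted exactly over the 8 arrays. The fit was tested on simulated data.

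The methods name an unpaired t-test with a 2-fold limit, kept as an alternative because it uses neither the dye swap nor a shared spread. Same-numbered samples of the 2 genotypes deviated together across genes (correlations 0.49, 0.68, 0.33 and 0.36, and 0.13 and 0.46 once the dye was removed), which the labels do not explain; the number also marks the dye and the slide column. The alternatives are those of the plot of differences by setting. The Sox genes, the lists and the rule for named genes (every Sox gene; list genes past 2-fold, or up to 3 per list with the brightest probes; 3 genes most like the top Sox gene of each direction) were chosen with earlier results of these data known. Some list genes beyond this rule are named to show the other direction, the signal of a marker or how it passed the filter. Number of arrays limits the precision.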

Additional observations from a re-analysis of the deposited data

Results flagged for a closer look

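Among 20 groups of 4 arrays (10 Sox genes, 2 genotypes), 3 held an array far from the other 3, where chance would give about 1 in 20. EED cKO replicate 1 had a Sox6 log2 ratio of 0.45, against 0.18 to 0.20 on the other EED cKO arrays. EED cKO replicate 2 had a Sox9 log2 ratio of 1.84, against 1.48 to 1.50, and a Sox18 log2 ratio of 0.78, against 0.15 to 0.24. Without EED cKO replicate 2 the Sox9 difference was 0.48 (adjusted p = 0.0241 by limma).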

How the results depend on the processing

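Of the 26 alternatives, all kept the difference in Eed (-1.72 to -1.39). The number of Sox genes that passed, 2 higher, 1 lower and 0 past 2-fold in the report, moved as follows. By the Feature Extraction log ratio and by the deposited log2 values 0 were lower and 1 (Sox11) was past 2-fold. Under median centring, and by the methods' t-test with Benjamini-Hochberg adjustment, 0 were higher and 0 lower. Without the filter on dim probes, with the median over the probes of a gene and with Y-linked RNA as a covariate 0 were lower. The 2 higher were Sox9 and Sox13 with the median over probes, and Sox9 and Sox7 with the covariate. Sox11 did not pass in either. Without the dye term 1 was higher and 0 lower, and with the dimmer probe of each gene with 2 probes 1 was higher. With the replicate block and with array weights 2 were lower (Sox4 and Sox15). Both also added Sox13, so that 3 were higher, and the replicate block changed no other call. Leaving out 1 array at a time gave 1 to 2 higher and 0 to 2 lower. Aquantile normalization leaves ratios as they are by construction. For a gene with 1 probe, such as Sox9 and Sox15, the settings that change how probes are combined also leave its difference as it is. The counts of alternatives include these settings.

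Signs that turned were those of Sox21, which was -0.14 with the median over its probes, -0.065 in the sample channel alone and -0.31 with its other probe, and -0.015 to 0.11 when 1 array was left out, and of Sox5 (-0.10 to 0.012 when 1 array was left out). The cause of these shifts was not tested. Dim probes (Sox11, Sox6, Sox18 and Sox15) limit what could be measured. The covariate and the dimmer probes were chosen after seeing the data.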
